A study of Mus musculus with 12 samples.

Results

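The dual specificity phosphatases described here are 10 mouse genes, Dusp1, Dusp2, Dusp4, Dusp5, Dusp6, Dusp7, Dusp8, Dusp10, Dusp14, and Dusp16. They were chosen by symbol, with earlier results of these data known, and matched to their GRCm38 Ensembl identifiers. Their levels were followed across every group of an RNA-seq time course of cerebral vessels. The 10 genes are part of 54119 genes for which fragments could be summed, and all 10 passed the filter on low counts that left 19150 genes for testing. The vessels were separated from the brains of wild type C57BL6 mice aged 2 to 3 months. Mice of the LPS 15 min, LPS 30 min, and LPS 4 h groups had received 10 mg/kg LPS, a cell wall component of Gram-negative bacteria, into the peritoneum, and control mice had received PBS. The labels give no time after injection for the PBS mice, and the same PBS group was the control at every time. The part of the time since injection in the changes was not tested. Each group had 3 libraries, and each library pooled the vessels of 1 male and 1 female, so that 6 mice stood behind a group and no value belongs to a single animal.

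A dual specificity phosphatase removes phosphate from both the threonine and the tyrosine of its substrate. MAP kinases, which comprise the ERK, JNK, and p38 families, are active only while the threonine and the tyrosine of their activation loop are phosphorylated, so these phosphatases switch them off. Several of the phosphatase genes are themselves immediate early genes that MAP kinase signaling turns on, which makes a negative feedback loop. In endothelium and in macrophages, Dusp1 is the member best known for limiting p38 and JNK signaling after LPS. By role, Dusp1, Dusp2, Dusp4, and Dusp5 encode inducible phosphatases of the nucleus, of which the Dusp5 protein acts on ERK alone. Dusp6 and Dusp7 encode cytoplasmic phosphatases that prefer ERK. Dusp8, Dusp10, and Dusp16 encode phosphatases that prefer JNK and p38. Dusp14 encodes a small atypical phosphatase without the kinase docking domain of the others.

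The promoter sequences of 4 members are shown because they hold the motifs that were rare among all promoters and are known from immediate early genes. They were picked after the levels of these genes were known. Sequences are from RefSeq on GRCm38.p6 and are written 5′ to 3′ on the strand of the gene. A window reached from 250 bases before to 50 bases after the annotated start, 9 of the 10 members had one (none was given for Dusp4), and the shares below were counted over 32851 such windows of 27025 genes. Each motif was searched on both strands. The printed part lies before the start and leaves out bases that GENCODE places in an exon of the gene. Capitals mark the cAMP response element TGACGTCA in Dusp1 (chr17:26508520-26508722, minus strand) and Dusp8 (chr7:142095285-142095534, minus strand), adjoining CArG boxes, the binding sequence of serum response factor, in Dusp5 (chr19:53528895-53529108, plus strand), and an Egr site GCGNGGGCG in Dusp2 (chr2:127335909-127336158, plus strand).
Dusp1: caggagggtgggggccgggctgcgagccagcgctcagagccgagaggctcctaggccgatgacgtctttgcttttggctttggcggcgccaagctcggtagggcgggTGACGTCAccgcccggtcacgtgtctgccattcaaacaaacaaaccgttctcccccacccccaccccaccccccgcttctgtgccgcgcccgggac
Dusp8: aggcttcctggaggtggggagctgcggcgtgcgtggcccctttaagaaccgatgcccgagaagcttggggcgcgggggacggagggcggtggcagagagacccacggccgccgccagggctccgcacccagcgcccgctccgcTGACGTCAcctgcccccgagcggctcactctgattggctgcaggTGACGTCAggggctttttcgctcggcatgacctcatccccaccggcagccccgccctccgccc
Dusp5: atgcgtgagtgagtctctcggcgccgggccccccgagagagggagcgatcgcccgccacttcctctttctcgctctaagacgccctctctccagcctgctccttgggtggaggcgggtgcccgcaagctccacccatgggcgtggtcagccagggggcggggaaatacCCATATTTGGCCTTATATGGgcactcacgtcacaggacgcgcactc
Dusp2: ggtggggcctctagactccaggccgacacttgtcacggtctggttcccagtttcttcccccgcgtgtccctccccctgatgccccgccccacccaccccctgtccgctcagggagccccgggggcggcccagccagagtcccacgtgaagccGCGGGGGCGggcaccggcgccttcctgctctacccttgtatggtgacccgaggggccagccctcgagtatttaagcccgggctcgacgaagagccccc

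The cAMP response element was in 1.79% of all windows. Among the members it was in Dusp1, at bases 143 to 136 before the start, and in Dusp8, once at bases 107 to 100 and once at bases 63 to 56 before the start. CArG boxes were in 1.63% of windows, and the Dusp5 window had 2, at bases 82 to 73 and 72 to 63 before the start. The Egr site was in 5.55% of windows, in Dusp2 at bases 98 to 90 before the start and in Dusp16 on the opposite strand at bases 138 to 130 before the start, and in both it overlapped a GC box. GC boxes (GGGCGG) were common, in 35.7% of all windows and in 8 of the 9 windows of members. The AP-1 site TGANTCA (7.81% of windows), the kappaB site (8.46%), and TATAAA (13.6%) were in none of the 9 windows. These matches describe letters in the windows and do not show that a factor was bound.

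Estimated fragments totalled 18.3 to 25.9 M per library. Levels are given as CPM, a count scaled by the library total and by the TMM factor, which corrects for the makeup of the RNA and was about 1.17 in PBS and 0.717 at LPS 4 h. A change was called when edgeR, fitted to all 12 libraries, placed it beyond 1.5-fold at an adjusted p (Benjamini-Hochberg, all 19150 genes) below 0.05. Changes are written on the log2 scale with a standard error (SE) taken from this fit. For a single gene, the exact permutation test of 3 libraries against 3 can reach no p below 0.1 (two-sided), so the calls rest on the spread estimated across genes. In these bulk libraries, fewer cells of a type and less RNA per cell cannot be told apart. Endothelial markers were abundant, as the label of the tissue implies, with a summed level of 10185 to 10461 CPM in PBS against 307 to 319 CPM for neuronal and 4.2 to 5 CPM for neutrophil markers. The endothelial sum was 6126 to 6186 CPM at LPS 4 h.

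At LPS 15 min, 6 of the 10 members rose and none fell, where 3.31% of all genes rose and 0.872% fell. The members were Dusp1, Dusp2, Dusp5, Dusp6, Dusp8, and Dusp16. The same symbols made up the 6 that rose at LPS 30 min, when 3.78% of all genes rose and 0.799% fell. Markers of several cell types moved at these times as well. All 5 skeletal muscle markers rose at LPS 30 min, with a summed level of 140 to 152 CPM against 5.38 to 8.88 CPM in PBS, and 3 of 4 smooth muscle markers fell at LPS 15 min, with 1488 to 1508 CPM against 2346 to 2382 CPM. At LPS 15 min, 2 of 5 neuronal markers rose (480 to 491 CPM summed, against 307 to 319 CPM in PBS). So did 2 of 4 red blood cell markers (2522 to 2600 CPM against 1633 to 1763 CPM), and 1 of 5 astrocyte markers fell (425 to 458 CPM against 565 to 585 CPM). Of 8 endothelial markers, 1 rose and 2 fell at LPS 15 min. The part of these cell types in the levels of the members was not tested. At LPS 4 h, 7 members rose and 1 fell, beside 19.0% of all genes that rose and 13.8% that fell. The 10 members had a median log2 fold change of 1.01, 0.87, and 1.26 in time order, and for all genes it was −0.002, −0.01, and −0.01. The libraries of the groups did not overlap in CPM for 8 of the 10 members at each time, where this held for 49.3%, 46.7%, and 70.9% of all genes. With scaling by library size only, the median of all genes was at −0.71 at LPS 4 h and at −0.18 at LPS 30 min, and the share of higher genes among all called ones was 18.2% in place of 58.0% at LPS 4 h and 61.4% in place of 82.6% at LPS 30 min. No called change of a member turned its direction under that scaling.

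**Figure D1:**
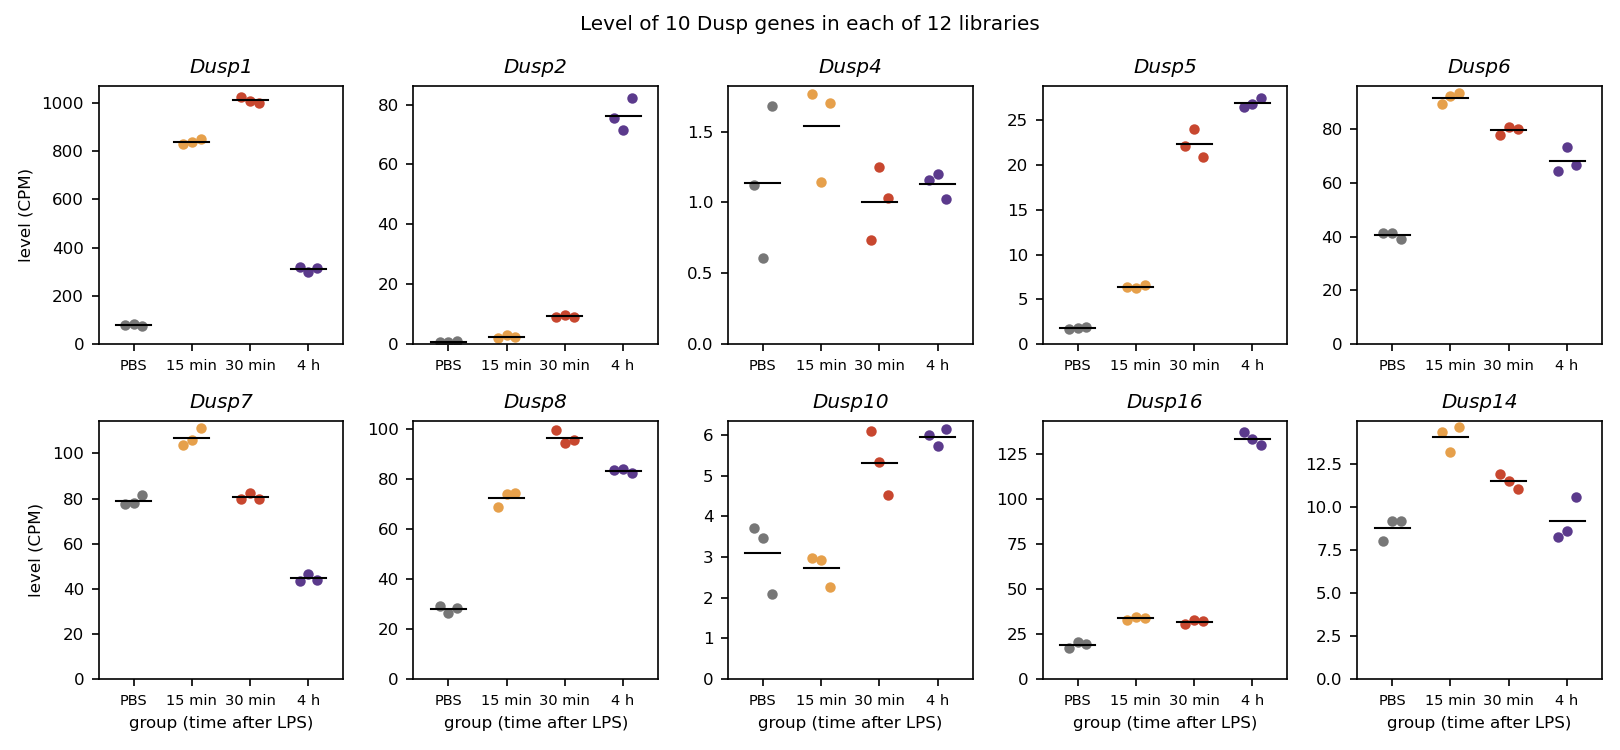
Level of each of the 10 Dusp genes in CPM (vertical axes, linear, each from 0) in the 12 libraries, by group (horizontal axes), with 1 point per library and a line at the mean of 3. In CPM, Dusp1 was highest at LPS 30 min, with 999 to 1022 CPM, whereas Dusp2 and Dusp16 were highest at LPS 4 h.

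Among the inducible nuclear phosphatases, Dusp1 had by far the highest level. Dusp1 (ENSMUSG00000024190, chromosome 17, 26505590 to 26562128, minus strand) measured 79.7, 84.7, and 77.0 CPM in the PBS libraries and 827, 837, and 852 CPM at LPS 15 min. It measured 1022, 1008, and 999 CPM at LPS 30 min, and 321, 298, and 317 CPM at LPS 4 h. The groups did not overlap at any time. The change against PBS was 3.38 (SE 0.03, adjusted p = 1.71e-25) at LPS 15 min, 10.4-fold, then 3.65 (SE 0.03, adjusted p = 2.54e-27) at LPS 30 min and 1.95 (SE 0.03, adjusted p = 1.97e-21) at LPS 4 h. The gain of 758 CPM at LPS 15 min was the 5th largest of 19150 genes, and the gain of 929 CPM at LPS 30 min was the 32nd. From LPS 15 min to LPS 30 min the difference was 0.27 (SE 0.03, adjusted p = 1), short of the 1.5-fold limit. From LPS 30 min to LPS 4 h Dusp1 fell by 1.70 (SE 0.03, adjusted p = 2.46e-20), to 0.309 of its earlier level, with all 3 late libraries below all 3 earlier ones and all still above PBS.

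Dusp2, first described in activated lymphoid cells, followed another course. The PBS libraries held 17, 22, and 26 fragments of Dusp2 (ENSMUSG00000027368, chromosome 2, 127336159 to 127338376, plus strand), or 0.64, 0.74, and 0.99 CPM. The level was 2.24, 2.97, and 2.49 CPM at LPS 15 min, 9.06, 9.90, and 9.03 CPM at LPS 30 min, and 75.4, 71.5, and 82.1 CPM at LPS 4 h, so each time stood apart from the one before it. Dusp2 rose against PBS by 1.69 (SE 0.19, adjusted p = 3.58e-05), 3.56 (SE 0.15, adjusted p = 8.65e-14), and 6.59 (SE 0.12, adjusted p = 2.86e-22) in that order. The last of these is 96.2-fold, the largest change of any member, and with so few PBS fragments its SE can be too small. Leaving out single libraries moved it between 6.46 and 6.77, and with library size only it was 5.89. Neutrophil markers were higher at LPS 4 h as well. Of the 6 markers, 5 were tested and all 5 rose at that time, and their summed level was 183 to 184 CPM against 4.2 to 5 CPM in PBS. Ly6g, with no more than 9 fragments in any library, was not tested. The part of such cells in the level of Dusp2 was not tested.

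Dusp5, the nuclear phosphatase of ERK, rose in steps and then stayed high. Its level (ENSMUSG00000034765, chromosome 19, 53529109 to 53542431, plus strand) was 1.65, 1.82, and 1.87 CPM in PBS, from 44 to 54 fragments per library. It was 6.34, 6.29, and 6.61 CPM at LPS 15 min, 22.1, 24.0, and 20.9 CPM at LPS 30 min, and 26.4, 26.8, and 27.5 CPM at LPS 4 h. In CPM, all libraries of a time lay above all libraries of the time before. The change against PBS was 1.84 (SE 0.12, adjusted p = 8.39e-09), 3.65 (SE 0.11, adjusted p = 9.98e-17), and 3.91 (SE 0.11, adjusted p = 2.9e-18). An annotated antisense gene overlaps Dusp5, and the library kit does not mark strand, so reads of both cannot be told apart. Dusp1 and Dusp8 also share a short stretch of exon with another gene.

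Dusp4 (ENSMUSG00000031530, chromosome 8, 34807297 to 34819894, plus strand), the remaining nuclear member, was low in every group. The 12 libraries held 15 to 52 fragments of it, and the levels were 1.12, 0.61, and 1.68 CPM in PBS, 1.76, 1.15, and 1.70 CPM at LPS 15 min, 0.74, 1.25, and 1.03 CPM at LPS 30 min, and 1.16, 1.2, and 1.02 CPM at LPS 4 h. The groups overlapped at every time. Against PBS it differed by 0.45 (SE 0.34), −0.17 (SE 0.36), and −0.004 (SE 0.38) on the log2 scale, each with adjusted p = 1. No change of Dusp4 was called, and with SEs of this size small changes could go undetected at this depth. Dusp2, with 17 to 26 fragments in the PBS libraries, was called at 1.69 at LPS 15 min.

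The cytoplasmic ERK phosphatases were both well expressed, and they parted at LPS 4 h. Dusp6 (ENSMUSG00000019960, chromosome 10, 99263231 to 99267489, plus strand) measured 41.4, 41.3, and 39.0 CPM in PBS and 89.2, 92.4, and 93.3 CPM at LPS 15 min. It measured 77.6, 80.7, and 80.2 CPM at LPS 30 min and 64.3, 73.3, and 66.7 CPM at LPS 4 h, so that in CPM every LPS library was above every PBS library. Dusp6 rose by 1.18 (SE 0.05, adjusted p = 1.64e-10), 0.97 (SE 0.05, adjusted p = 1.79e-07), and 0.75 (SE 0.05, adjusted p = 0.00137). The call at LPS 4 h depended on the scaling. With library size only the change was 0.05 (adjusted p = 1), and in limma on the normalized counts it was 0.77 (adjusted p = 0.0507).

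Dusp7 (ENSMUSG00000053716, chromosome 9, 106368632 to 106375724, plus strand) was the only member that fell. Its level was 77.5, 77.9, and 81.3 CPM in PBS, 104, 106, and 111 CPM at LPS 15 min, 79.6, 82.6, and 79.9 CPM at LPS 30 min, and 43.4, 46.6, and 43.8 CPM at LPS 4 h. The LPS 15 min libraries were all above PBS, with a change of 0.44 (SE 0.04, adjusted p = 1) that lies inside the 1.5-fold limit. In CPM the LPS 30 min libraries overlapped PBS (0.03, SE 0.04, adjusted p = 1). At LPS 4 h Dusp7 fell by 0.82 (SE 0.05, adjusted p = 1.58e-05), to 0.566 of PBS, and all 3 libraries were below every other library of the study. In the same libraries, 6 of 8 endothelial markers fell and 1 rose. The neuronal markers had a summed level of 239 to 248 CPM at LPS 4 h and 480 to 491 CPM at LPS 15 min, against 307 to 319 CPM in PBS, and 2 of 5 of them rose at LPS 15 min. Their part in the level of Dusp7 was not tested.

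Of the phosphatases of JNK and p38, Dusp8 rose early, Dusp16 rose mainly late, and the course of the low Dusp10 was uncertain. Dusp8 (ENSMUSG00000037887, chromosome 7, 142079490 to 142095843, minus strand) measured 29.1, 26.3, and 28.4 CPM in PBS, 68.9, 73.9, and 74.2 CPM at LPS 15 min, 99.5, 94.3, and 95.5 CPM at LPS 30 min, and 83.5, 83.8, and 82.1 CPM at LPS 4 h. No LPS group overlapped PBS or another LPS group in CPM. Dusp8 rose by 1.37 (SE 0.05, adjusted p = 1.23e-12), 1.79 (SE 0.05, adjusted p = 1.61e-16), and 1.58 (SE 0.05, adjusted p = 1.57e-15). It was the second member, with Dusp1, whose window held the cAMP response element.

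Dusp16 (ENSMUSG00000030203, chromosome 6, 134715468 to 134792625, minus strand) rose mainly late. The PBS libraries measured 17.0, 20.3, and 19.3 CPM, the LPS 15 min libraries 33.0, 34.2, and 34.1 CPM, and the LPS 30 min libraries 30.7, 33.1, and 32.1 CPM. By 4 h the level was 137, 133, and 129.8 CPM, above every library of the other groups. The change was 0.84 (SE 0.06, adjusted p = 0.00129) by 15 min, 0.76 (SE 0.06, adjusted p = 0.026) by 30 min, and 2.82 (SE 0.06, adjusted p = 5.8e-21) by 4 h, which is 7.06-fold. The early calls lay close to the limit. The call at LPS 15 min was lost in limma on the normalized counts (0.82, adjusted p = 0.126). That at LPS 30 min was lost in DESeq2 (0.74, adjusted p = 0.392), in limma, with library size only, with a transcript length offset, and with only the groups compared in the fit. Among single libraries it was lost without PBS replicate 1 (0.69, adjusted p = 0.251), LPS 30 min replicate 2 (0.73, adjusted p = 0.111), or LPS 30 min replicate 3 (0.76, adjusted p = 0.0588).

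Dusp10 (ENSMUSG00000039384, chromosome 1, 184013302 to 184075636, plus strand) was low, with 55 to 141 fragments per library. It measured 3.71, 3.48, and 2.10 CPM in PBS, 2.98, 2.93, and 2.26 CPM at LPS 15 min, 6.11, 5.34, and 4.51 CPM at LPS 30 min, and 6.01, 5.73, and 6.15 CPM at LPS 4 h. The LPS 30 min and LPS 4 h libraries were all above PBS in CPM, and those at LPS 15 min overlapped it. The change was −0.19 (SE 0.20, adjusted p = 1), 0.78 (SE 0.20, adjusted p = 0.674), and 0.94 (SE 0.20, adjusted p = 0.0388), and only the last was called. That call was lost in DESeq2 (0.95, adjusted p = 0.294), in limma, with library size only, with no filter, with a transcript length offset, and with only the groups compared in the fit. It was also lost without PBS replicate 3 (0.73, adjusted p = 0.224), LPS 4 h replicate 1 (0.94, adjusted p = 0.0622), or LPS 4 h replicate 3 (0.92, adjusted p = 0.0753).

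Dusp14 (ENSMUSG00000018648, chromosome 11, 84048041 to 84069261, minus strand), the atypical member, was not called at any time. It measured 8.02, 9.14, and 9.16 CPM in PBS, 14.3, 13.2, and 14.6 CPM at LPS 15 min, 11.9, 11.5, and 11 CPM at LPS 30 min, and 8.25, 8.59, and 10.6 CPM at LPS 4 h. The groups at LPS 15 min and LPS 30 min did not overlap PBS in CPM, and the group at LPS 4 h did. The change was 0.68 (SE 0.11, adjusted p = 0.736) by 15 min, 0.39 (SE 0.11, adjusted p = 1) by 30 min, and 0.06 (SE 0.12, adjusted p = 1) by 4 h. Tested against no change rather than against 1.5-fold, it was higher at LPS 15 min (adjusted p = 2.28e-05) and at LPS 30 min (adjusted p = 0.00764). Under that looser test 8 of the 10 members were called at each time, where 38.6%, 36.9%, and 68.5% of all genes were called.

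**Figure D2:**
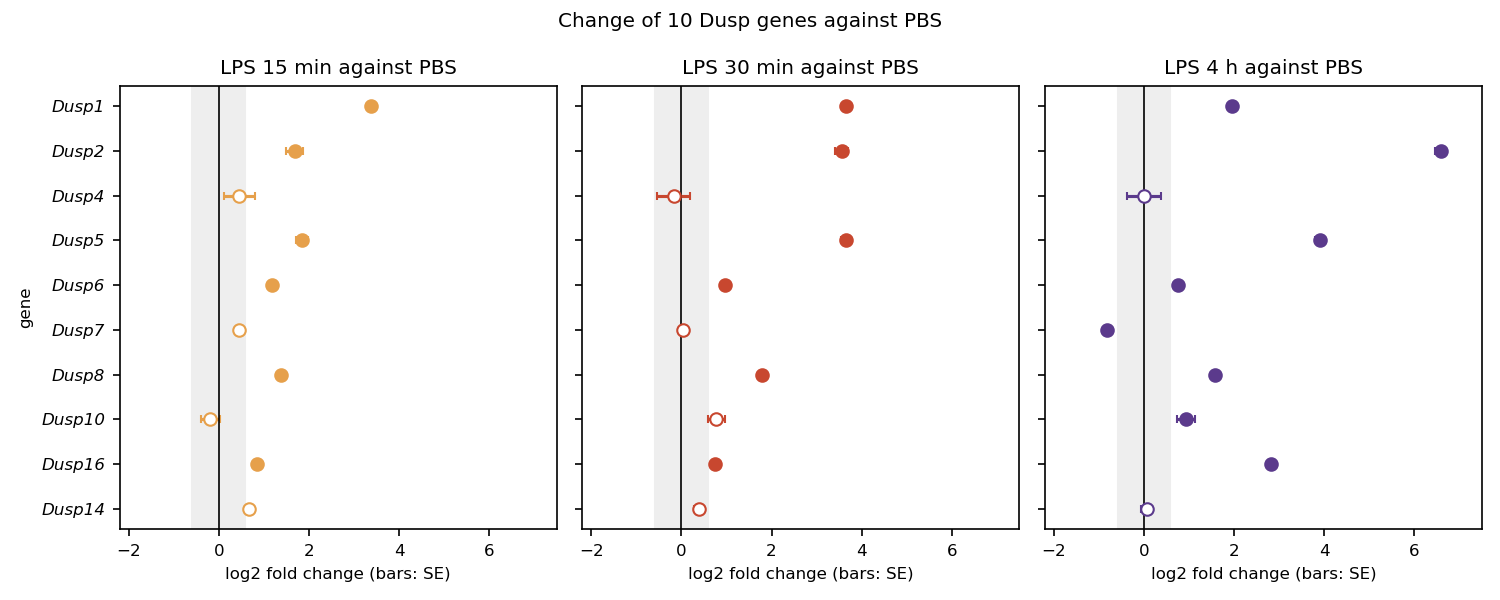
Log2 fold change of the 10 Dusp genes (vertical axis) against PBS at LPS 15 min, LPS 30 min, and LPS 4 h (3 panels), with bars of 1 SE from the edgeR fit that are often smaller than the point. Filled points were called, open points were not, and grey marks the 1.5-fold limit. Dusp1 went from 3.38 to 3.65 to 1.95 while Dusp2 went from 1.69 to 3.56 to 6.59.

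The order of the members changed with time. On the TPM scale, which divides by transcript length and allows genes to be compared, the order in PBS was Dusp1 (76.3 ± 2.31), Dusp7 (43.0 ± 1.05), Dusp6 (25.3 ± 1.79), Dusp14 (11.4 ± 0.876), Dusp8 (9.56 ± 0.608), Dusp16 (6.32 ± 0.455), Dusp10 (1.87 ± 0.547), Dusp5 (1.24 ± 0.0742), Dusp2 (0.954 ± 0.244), and Dusp4 (0.713 ± 0.333), each as mean ± SD of 3 libraries. From Dusp10 down to Dusp4, neighbors overlapped between libraries, and the higher neighbors did not. At LPS 30 min Dusp1 was at 758 ± 15.1 TPM (745 to 775), below its level at LPS 15 min (783 to 798) without overlap, so the order of these times depends on the scale and was the reverse of that in CPM. The last step of Dusp5 was reversed too, with 9.91 to 10.1 TPM at LPS 4 h against 11.8 to 13.6 TPM at LPS 30 min. Dusp8 overlapped between LPS 15 min (23.6 to 26.1 TPM) and LPS 30 min (25.9 to 27.5 TPM). At LPS 15 min Dusp1 reached 791 ± 7.45 TPM, followed by Dusp7 (58.6 ± 0.471 TPM) and Dusp6 (57.9 ± 1.12 TPM), which overlapped. At LPS 4 h Dusp1 still ranked 1 (155 ± 7.16 TPM), Dusp2 ranked 2 (49.8 ± 3.32 TPM), and Dusp7 ranked 6 (12.7 ± 0.490 TPM). Dusp16 (25.3 ± 2.43 TPM), at rank 3, and Dusp6 (23.6 ± 2.72 TPM), at rank 4, overlapped. Overlap with PBS also depended on the scale. In TPM, Dusp6 at LPS 4 h (22.0 to 26.8) overlapped PBS (23.4 to 26.9). Dusp10 overlapped PBS (1.25 to 2.26) at LPS 30 min (2.19 to 3.02) and LPS 4 h (1.82 to 1.96). Dusp14 overlapped PBS (10.4 to 11.9) at LPS 30 min (11.6 to 12.7) and lay below it at LPS 4 h (5.86 to 7.30). Dusp7 at LPS 30 min (35.9 to 38.7) lay below PBS (41.9 to 44.1).

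As a share of the summed TPM of the 10 genes, which the scaling of a library leaves unchanged, Dusp1 made up 43.2% ± 0.545 (SD, n = 3) in PBS. After LPS it made up 81.3% ± 0.177 by 15 min, 83.5% ± 0.285 by 30 min, and 51.7% ± 1.07 by 4 h. Dusp2 made up 0.541% ± 0.143 in PBS and 16.6% ± 0.951 at LPS 4 h. The share of Dusp7 was 24.3% ± 0.834 in PBS, 6.03% ± 0.0791 at LPS 15 min, and 4.23% ± 0.271 at LPS 4 h. A share depends on the whole sum, and at LPS 15 min the level of Dusp7 itself was above PBS (58.6 ± 0.471 against 43.0 ± 1.05 TPM). Dusp6 held 14.3% ± 0.794 in PBS and 7.88% ± 1.11 at LPS 4 h, and Dusp16 held 3.57% ± 0.205 and 8.40% ± 0.691. Of the others at LPS 4 h, Dusp8 held 5.04% ± 0.193 and Dusp5 held 3.32% ± 0.0968. The summed TPM was 177 ± 3.61, 973 ± 7.05, 908 ± 16.5, and 301 ± 7.65 in time order. TPM carries no TMM factor and is scaled to a total that is itself divided by transcript length. These sums were lower in the later groups relative to the CPM values.

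**Figure D3:**
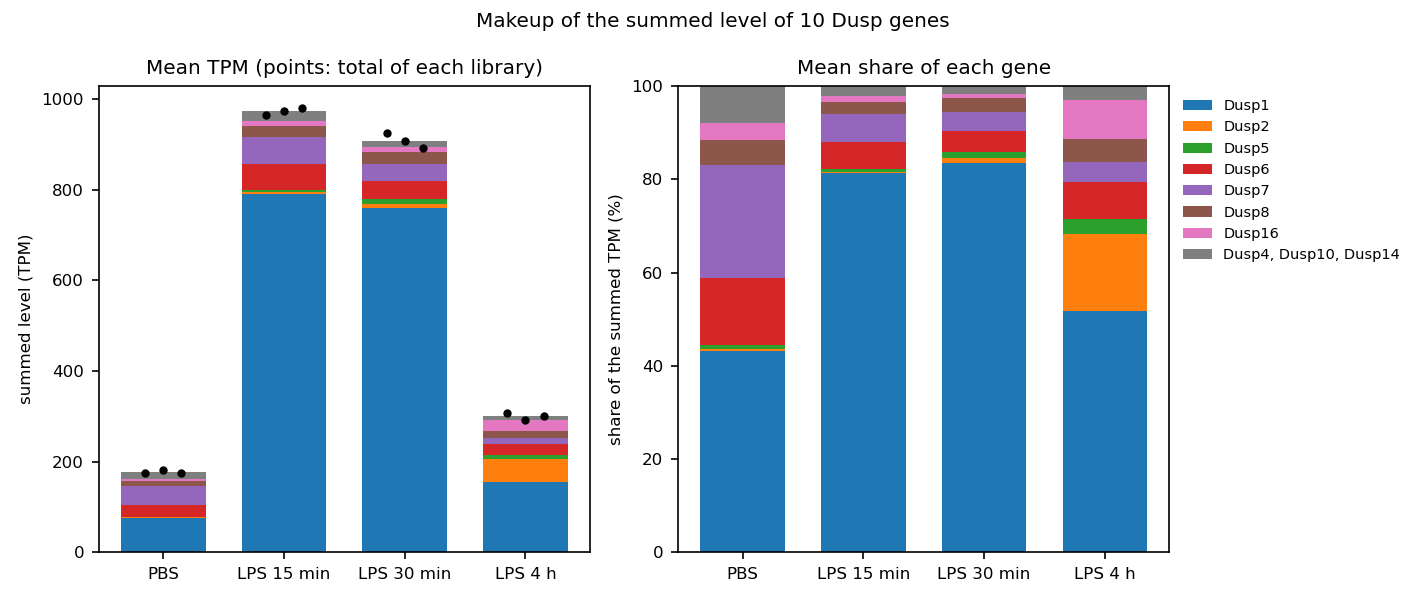
Summed level of the 10 Dusp genes in TPM (left, stacked group means, with a point for the total of each library) and the mean share of each gene in that sum in percent (right), by group. Dusp1 filled 43.2% of the sum in PBS and 83.5% at LPS 30 min, and Dusp2 filled 16.6% at LPS 4 h.

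The LPS groups were also compared with each other. Between LPS 15 min and LPS 30 min, Dusp2 (1.87, SE 0.12, adjusted p = 4.42e-09) and Dusp5 (1.80, SE 0.09, adjusted p = 1.08e-10) rose further, and no member fell, with 2.69% of all genes higher and 1.96% lower. In this comparison library size only gave 37.2% higher among all called genes in place of 57.9%. Between LPS 30 min and LPS 4 h, Dusp2 (3.03, SE 0.09, adjusted p = 9.54e-18) and Dusp16 (2.06, SE 0.05, adjusted p = 8.33e-18) rose, and Dusp1 and Dusp7 (−0.85, SE 0.05, adjusted p = 3.84e-06) fell, with 16.9% of all genes higher and 11.8% lower. There library size only gave 21.7% higher in place of 58.9%, and Dusp6 (−0.76, adjusted p = 0.000414), Dusp8 (−0.75, adjusted p = 0.000361), and Dusp14 (−0.87, adjusted p = 0.00792) were then called lower as well. Dusp5 showed a difference of 0.27 (SE 0.09, adjusted p = 1) between these times, which became −0.27 with library size only. In each of these 2 comparisons the libraries did not overlap in CPM for 8 of the 10 members, as for 47.6% and 67.5% of all genes. Tested against no change, 8 members were called each time, beside 37.4% and 65.3% of all genes. These comparisons share libraries with those against PBS and are not independent of them.

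Genes whose level ran most alike over the 12 libraries were found by Pearson's r of log2 CPM among 15785 tested protein-coding genes, as a description. For Dusp5 they were Ier3 (r = 0.998), Bcl6b (0.997), and Nr4a3 (0.997). For Dusp8 they were Per1 (0.995), Junb (0.993), and Sik1 (0.99), and for Dusp1 Tspan4 (0.993), Bcl2l1 (0.992), and Cacybp (0.989). For Dusp2 they were Cct8 (0.997), Cdkn1a (0.997), and the hemoglobin gene Hba-a1 (0.996), and for Dusp16 Zbtb21 (0.996), Taf1d (0.996), and Ranbp9 (0.996). The summed level of the 4 red blood cell markers was 1633 to 1763 CPM in PBS and 4910 to 5145 CPM at LPS 4 h. For Dusp7 they included Adgrl1 (0.996) and Ttc3 (0.992). Values of r were lower for Dusp10 (D630039A03Rik, 0.957), Dusp14 (Cbarp, 0.957), Dusp6 (Kndc1, 0.982), and the low Dusp4 (Zglp1, 0.85). The points are 4 groups of 3 libraries, so r mostly reflects the group means.

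Below the level of the gene, transcripts of Dusp6 and Dusp1 shifted with time. The coding transcript Dusp6-204 held 6.47% to 14.5% of the Dusp6 fragments at LPS 4 h. In the other groups it held at most 3.83% in any library. Salmon divided the fragments of Dusp1 almost entirely between the coding transcript Dusp1-202 and the retained-intron transcripts Dusp1-203 and Dusp1-204. The retained-intron share of fragments was 20.1%, 20.5%, and 17.2% in PBS and 18.4%, 18.4%, and 18.3% at LPS 15 min. It was 12.8%, 12.2%, and 10.3% at LPS 30 min, below every library of the earlier groups, and 13.6%, 11.7%, and 17.3% at LPS 4 h, which overlapped PBS. The exact permutation test of LPS 30 min against PBS gave p = 0.1 (two-sided), the smallest that 3 against 3 allows. On the TPM scale the share was 24.2% ± 0.564 (SD) in the PBS group. It was 23.2% ± 0.0408 by 15 min, 15.5% ± 1.51 by 30 min, and 18.4% ± 2.83 by 4 h. Between PBS and LPS 15 min, while the gene rose 10.4-fold, the groups overlapped by fragments and did not overlap by TPM. These shares are estimates from sequence that the transcripts largely share.

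**Figure D4:**
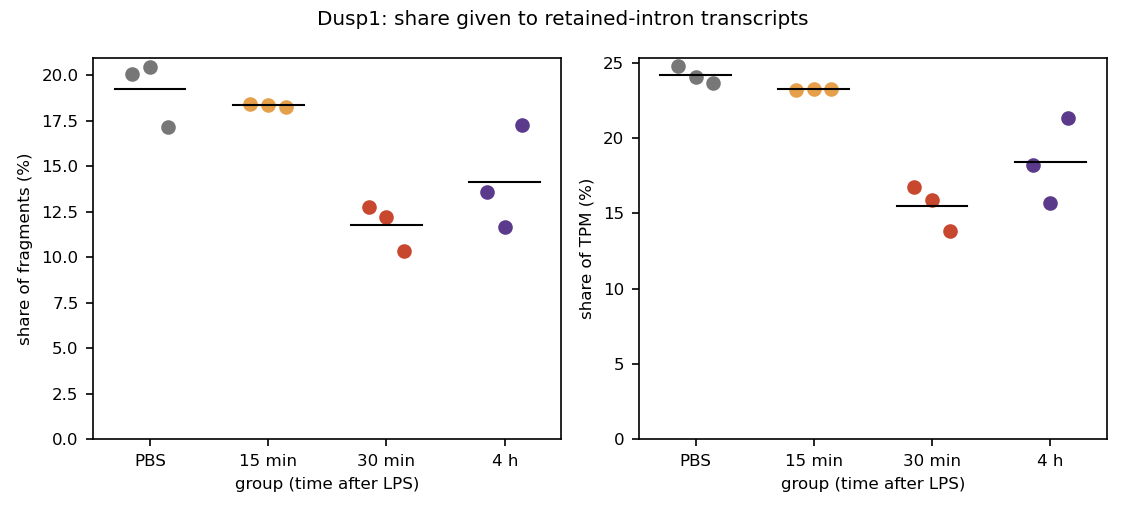
Share of Dusp1 that Salmon gave to its retained-intron transcripts, in percent of fragments (left) and of TPM (right), with 1 point per library and a line at the mean of each group. By fragments, the LPS 30 min libraries (10.3% to 12.8%) lie below all PBS and LPS 15 min libraries.

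The genes differed widely in length. From first to last exon, the main coding transcript covered 2218 bases for Dusp2, 2930 bases for Dusp1, 4258 bases for Dusp6, 7093 bases for Dusp7, 12598 bases for Dusp4, 13323 bases for Dusp5, 15783 bases for Dusp8, and 20317 bases for Dusp14. It covered 41256 bases for Dusp10 and 77153 bases for Dusp16, which lie above the median of 21497 bases over 15609 tested coding genes. The 10 transcripts had 3 to 7 exons, against a median of 8. In the 3′ untranslated region, the pentamer ATTTA, the core of AU-rich elements that shorten the life of many mRNAs, occurred 4 times in the 690 bases of Dusp1 and 4 times in the 581 bases of Dusp2. Per kilobase that was 5.80 and 6.88, densities that 4.72% and 3.04% of genes reached, where the median of all genes was 1.26. By count, 28.3% of genes had at least 4. Dusp8 had the most of the members, 5 in 2370 bases, and 21.5% of genes had at least as many. The pentamer did not occur in Dusp7 or Dusp14, and per kilobase the other 6 members ranged from 0.841 (Dusp6) to 2.70 (Dusp10). The nonamer TTATTTATT, a stricter form found in 7.82% of genes, was in Dusp1 and Dusp8 only. Its surroundings are shown with the nonamer in capitals, from GENCODE M21 transcripts, at bases 103 to 111 (site a) and 392 to 400 (site b) of the Dusp1 region and at bases 127 to 135 of the Dusp8 region.
Dusp1, site a: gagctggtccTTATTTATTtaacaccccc
Dusp1, site b: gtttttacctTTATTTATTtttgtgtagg
Dusp8: tttcgattttTTATTTATTtaagctagtg

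Other genes of the pathway were counted by lists. Of 16 other dual specificity phosphatases, 14 were tested, and at LPS 15 min and LPS 30 min none was called in either direction. By 4 h, Dusp28 rose (1.00, adjusted p = 0.000492), and Dusp3 (−0.66, adjusted p = 0.0211), Dusp19 (−1.21, adjusted p = 0.00242), Dusp22 (−1.11, adjusted p = 1.05e-07), and Dusp26 (−0.79, adjusted p = 0.0377) fell. The call of Dusp28 was lost with library size only (0.30, adjusted p = 1). That of Dusp3 was lost in DESeq2 (adjusted p = 0.266), in limma (adjusted p = 0.112), and without LPS 4 h replicate 2 (adjusted p = 0.108). That of Dusp26 was lost in DESeq2 (adjusted p = 0.429), with no filter (adjusted p = 0.0516), and without PBS replicate 1 or 3 or LPS 4 h replicate 1 or 3 (adjusted p = 0.062 to 0.0837). The median of the 14 was 0.02, 0.02, and 0.19 in time order, beside 1.01, 0.87, and 1.26 for the 10 members. Both sets were chosen with earlier results of these data known, so their contrast is a description.

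Sprouty and Spred proteins restrain the signal above ERK. Of their 7 genes 6 were tested, none was called at LPS 15 min or LPS 30 min, and 4 rose at LPS 4 h. Spry4 was at 16.1 ± 1.21 CPM in PBS and 104 ± 0.649 CPM at LPS 4 h (2.68, adjusted p = 2.35e-19), and Spry1 (2.12, adjusted p = 2.81e-16), Spred1 (1.30, adjusted p = 2.5e-12), and Spry2 (0.87, adjusted p = 0.00248) rose less. With library size only the change of Spred1 was 0.60 (adjusted p = 0.292) and that of Spry2 was 0.17 (adjusted p = 1), and in limma the call of Spry2 was lost as well (0.84, adjusted p = 0.0536). All 3 tyrosine phosphatases of MAP kinases were tested. Ptpn5, best known in neurons, rose at LPS 15 min (1.42, adjusted p = 3.08e-13), when the neuronal marker sum was also higher, and Ptprr fell at LPS 4 h (−1.77, adjusted p = 1.59e-15). The part of neuronal RNA in the former was not tested.

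Over the 4 lists of kinases, 44 genes were tested. Of these, 3 (6.82%) rose at LPS 15 min, 5 (11.4%) rose at LPS 30 min, and none fell at either time. Of all genes, 3.31% and 3.78% rose and 0.872% and 0.799% fell at these times. At LPS 4 h, 22.7% rose and 27.3% fell, beside 19.0% and 13.8% of all genes. Of 13 MAP kinases, Mapk11 was called at LPS 15 min (0.77, adjusted p = 0.0079), though not in DESeq2 (adjusted p = 0.201) or limma (adjusted p = 0.308), and Mapk15 at LPS 30 min (1.46, adjusted p = 1.06e-10). By 4 h, Mapk6, an atypical MAP kinase, rose (3.24, adjusted p = 3.35e-23), as did Mapk15, whose call was lost in limma and with library size only. Mapk3, which encodes ERK1 (−2.0, adjusted p = 5.19e-20), Mapk12 (−1.09, adjusted p = 1.05e-07), and Mapk14, which encodes p38 alpha (−1.07, adjusted p = 3.95e-09), fell. Of 7 MAP kinase kinases none was called before LPS 4 h, when 3 rose, led by Map2k3 (2.53, adjusted p = 2.27e-22), and 2 fell, led by Map2k6 (−2.39, adjusted p = 2.14e-07). Both activate p38.

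Of 14 MAP kinase kinase kinases, Map3k8, also called Tpl2, which acts above ERK in LPS signaling, rose at every time (1.06, 1.47, and 4.03), and so did Map3k6 (1.49, 1.85, and 3.23). Map3k11 was also called at LPS 30 min (0.70, adjusted p = 0.0119), though not without LPS 30 min replicate 1 (0.68, adjusted p = 0.0709) or in DESeq2 (0.68, adjusted p = 0.178), limma, library size only, or with a transcript length offset. By 4 h, 3 of the list rose and 3 fell, Map3k11 among the latter (−0.98, adjusted p = 1.63e-09). Among 10 kinases downstream of MAP kinases, Mknk2 was the single one called early (1.08 at LPS 30 min, adjusted p = 1.83e-12). Later, at LPS 4 h, 2 rose, led by Rps6ka3 (2.78, adjusted p = 1.07e-24), and 4 fell, led by Rps6ka1 (−2.05, adjusted p = 1.38e-15) and followed by Mknk2 (−1.20, adjusted p = 1.31e-13). The median change of the kinase lists lay between −0.24 and 0.34 at LPS 4 h, beside 1.26 for the 10 Dusp genes.

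**Figure D5:**
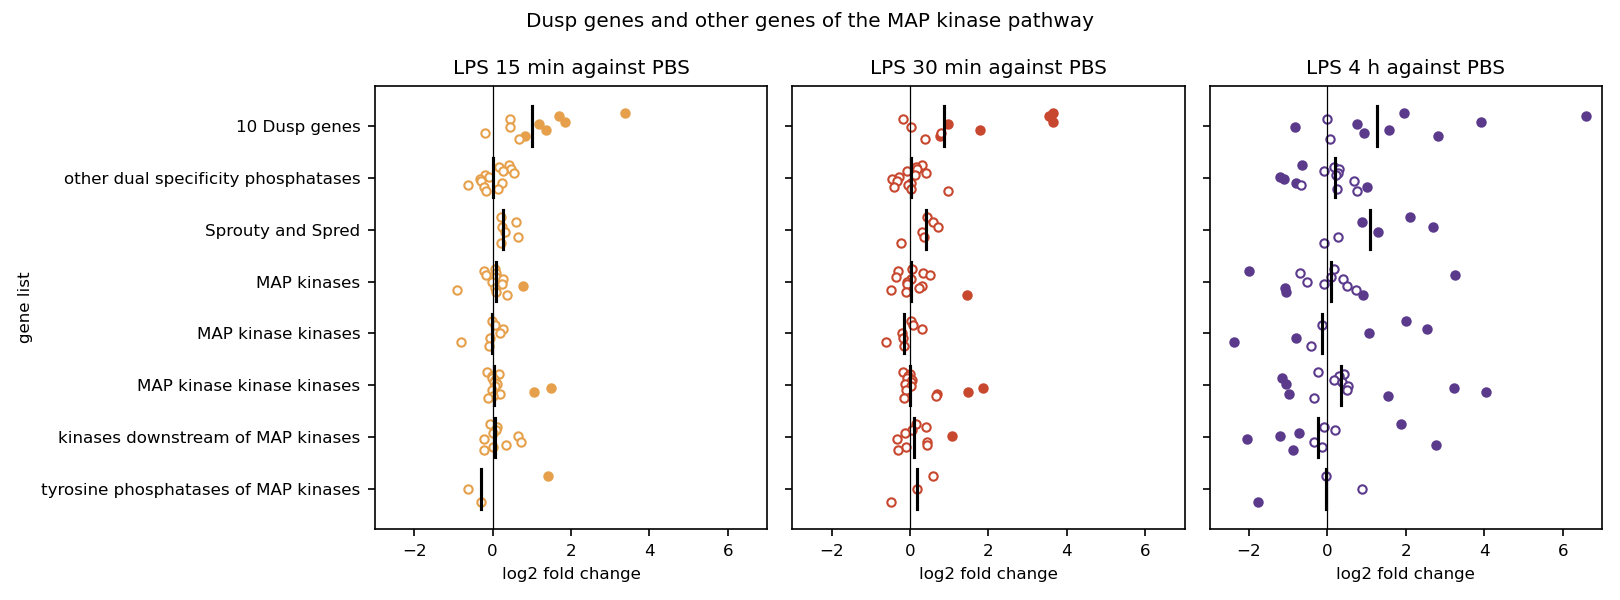
Log2 fold change against PBS (horizontal axes) of the 10 Dusp genes and of each tested gene in 7 other lists of the MAP kinase pathway (rows), at 3 times (panels), with filled points for called genes, open points for others, and a line at the list median. At LPS 15 min the median of the Dusp genes was 1.01, and 6 of the 10 were called.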

How the data were processed

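RNA of cerebral vessels, amplified by SMART-Seq v4, was sequenced in 12 libraries, 3 per group, grouped by their labels. The authors ran Salmon 1.2.1 on GRCm38.p6. Their deposited transcript files hold estimated counts (fragments per transcript, not normalized), TPM (scaled for transcript length), and effective lengths, and their deposited gene table holds a normalized signal, counts divided by DESeq2 size factors. Its columns were matched to libraries by the sample number in the library's own file name.

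Of 140948 transcripts, 139852 were joined by identifier to GENCODE M21, and the others, 0.482% to 0.85% of the fragments, were left out. Estimated counts were summed to genes, rounded, and filtered with filterByExpr (minimum 10, total 15, share 0.7). The 12 libraries entered 1 fit in edgeR 4.0.16 (R 4.3.3, TMM), tested with glmTreat against 1.5-fold. The SE was obtained by dividing the absolute change by √F of the quasi-likelihood test. Biological variation (common BCV) was 0.0524, and libraries of a group differed by 2.20 to 2.93 times the variance of counting. Labels do not say that equal numbers mark a shared day, so no block was used. The alternatives were DESeq2 1.42.0, limma 3.58.1 on log2 of the gene table plus 1, and further settings. The test was tried on simulated counts. Python 3.11.15, pandas 2.3.3, and matplotlib 3.10.9 made tables and plots.

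The members and all lists were chosen with earlier results of these data known. Genes of a list were named where they were called and among its 3 largest changes, or where a sentence accounts for the whole list, and for each member the 3 genes most alike were found. For the 4 members with the lowest r only the first is given, and 1 gene found for another member is not reported here.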

Additional observations from a re-analysis of the deposited data

Results flagged for a closer look

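Of the 10 Dusp genes, 6 changes between LPS times passed the test of the difference itself in edgeR, so that their change against PBS was not the same at both times. The rise of Dusp2 (1.87 on the log2 scale, 9.03 to 9.90 CPM against 2.24 to 2.97 CPM) and of Dusp5 (1.80) was larger at LPS 30 min than at LPS 15 min. At LPS 4 h, the rise of Dusp2 (3.03) and of Dusp16 (2.06) was larger than at LPS 30 min. The rise of Dusp1 was smaller at LPS 4 h (−1.70), with 298 to 321 CPM against 999 to 1022 CPM, and Dusp7 was lower (−0.85), with 43.4 to 46.6 CPM against 79.6 to 82.6 CPM. In all 6, the libraries of the times did not overlap. Between LPS 15 min and LPS 30 min, 2.69% of all genes were called higher, 1.96% lower, and 47.6% did not overlap. Between LPS 30 min and LPS 4 h these shares were 16.9%, 11.8%, and 67.5%. Groups of 3 libraries were not searched for single libraries that stand apart.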

How the results depend on the processing

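The 26 called changes of the members gave 390 values under the alternatives, of which 370 kept direction and call, 20 lost the call, and none reversed. The calls that were lost belong to Dusp16 (15 and 30 min), Dusp10 (4 h), and Dusp6 (4 h). The cause was not tested. The 24 changes not called gave 360 values, of which 17 were called and 15 reversed.

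With no fold limit, 8 members were called in place of 2 between LPS 15 min and LPS 30 min and 8 in place of 4 between LPS 30 min and LPS 4 h. Over all genes it called 7393 in place of 800 (LPS 15 min), 7066 in place of 877 (LPS 30 min), 13124 in place of 6273 (LPS 4 h), 7153 in place of 891 (LPS 30 min against LPS 15 min), and 12498 in place of 5484 (LPS 4 h against LPS 30 min). With library size only, 10462 genes were called at LPS 4 h, and 8848 genes and 7 members between LPS 30 min and LPS 4 h. In limma on the normalized counts the totals were 406 (LPS 15 min), 531 (LPS 30 min), and 443 (LPS 30 min against LPS 15 min).

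Each reversed value was of a change not called. With library size only they were Dusp7 at LPS 30 min (−0.13), Dusp14 at LPS 4 h (−0.64), and Dusp4 (−0.37), Dusp5 (−0.27), and Dusp10 (−0.38) between LPS 30 min and LPS 4 h. Dusp4 at LPS 4 h was 0.000785 with RLE factors and 0.0873 in limma, and leaving out single libraries moved it between −0.32 and 0.38, above 0 without PBS replicate 3 or LPS 4 h replicate 3. Leaving out single libraries also moved Dusp4 at LPS 30 min between −0.48 and 0.22 (above 0 without PBS replicate 3 or LPS 30 min replicate 1), Dusp4 between LPS 30 min and LPS 4 h between −0.0212 (without LPS 30 min replicate 1) and 0.35, and Dusp14 at LPS 4 h between −0.0587 and 0.13 (below 0 without PBS replicate 1 or LPS 4 h replicate 3).

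Over the 18 pairs of libraries that share a number, deviations from the group means correlated at −0.05 to 0.07, which gives no pairing. With the replicate block, 6, 6, and 8 members were called against PBS, as without it, and 776, 856, and 6235 genes in all. Dusp4 at LPS 4 h was 0.0383 with the block. Levels of Dusp2, Dusp4, Dusp5, and Dusp10 in PBS rest on 17 to 103 fragments per library, which limits their precision.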
